A study of Mus musculus with 6 samples.

Results

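Prohormone processing enzymes are the proteins that turn hormone precursors into active peptides, and 7 of their genes, Pcsk1, Pcsk2, Cpe, Cpd, Pam, Qpct and Furin, were followed by symbol among the 40840 rows of a gene count table from mouse pancreatic islets. The list is a family of convertases, carboxypeptidases and peptide-modifying enzymes and was not drawn from a measured difference. Earlier results of these data were known when it was chosen. All 7 had a row in the table and all 7 passed the low-count filter, among 16240 genes that did. There were 3 knockout (KO) and 3 wild-type (WT) islet libraries on a C57BL/6J background, and the title of the series names IGF2R in beta cells as its subject. The labels name neither the way the gene was removed, nor the cells in which it was removed, nor the age or sex of the animals. Separate animals for the 3 libraries of a group are not stated either, so each p-value is set against a spread that may be technical.

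In endocrine cells a prohormone is packed into secretory granules together with its processing enzymes. The convertases PC1/3 (Pcsk1) and PC2 (Pcsk2) cut after pairs of basic residues, and carboxypeptidase E (Cpe) then trims the basic residues left at the new ends. Peptides such as islet amyloid polypeptide are finally amidated by PAM, while furin and carboxypeptidase D (Cpd) act earlier, in the trans-Golgi network. Beta cells are known for using PC1/3 and PC2 on proinsulin, and alpha cells for using PC2 to make glucagon.

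Counts summed to between 16689319 and 18956235 in KO libraries and between 16943764 and 18757633 in WT libraries. The targeted transcript, Igf2r, had 928, 841 and 823 counts in KO libraries 1 to 3, against 1790, 2145 and 2097 counts in WT libraries 1 to 3. Its log2 fold change was -1.21 (SE 0.0946, edgeR adjusted p 0.00261), so the labels matched the target although transcript remained. Its size changed little, at -1.32 to -1.11 when single libraries were left out and -1.26 with the level of acinar markers as a covariate. The edgeR adjusted p was above 0.05 in 3 of these settings, at 0.13 without KO library 1 (log2 fold change -1.22), 0.192 without KO library 2 (-1.20) and 0.245 with the covariate. Endocrine islet markers were present in every library, since 11 beta cell markers, insulin included, took 14.65% to 16.23% of counts in KO and 13.22% to 15.13% in WT, and 9 alpha cell markers took 3.03% to 3.47% in KO and 2.83% to 3.65% in WT. Markers of acinar cells, the digestive-enzyme cells around islets, set 2 libraries apart, since 18 of them took 0.0861% to 0.253% of counts in KO, against 1.66%, 1.735% and 0.2795% in WT libraries 1, 2 and 3. Of these 18, 16 were tested, all with lower values in KO and a median log2 fold change of -3.09, while Amy2a5 had 0 counts in every library and Prss1 at most 3. Both gamma cell markers were higher in KO without overlap (0.754% to 0.832% of counts in KO, 0.474% to 0.711% in WT), and 3 of 7 duct cell markers were lower without overlap. Groups also did not overlap for 2 of 7 leukocyte, 1 of 5 neural and 2 of 4 erythroid markers, higher in KO. The same held for 1 of 4 delta cell markers, lower in KO. Of the 11 beta cell markers, 5 were higher in KO without overlap and 1 was lower. Over all genes tested, the groups did not overlap for 8.02% with higher and 7.69% with lower values in KO. EdgeR called 0 genes of these marker lists, and their part in the results below was not tested. The libraries hold whole islets, so fewer cells of a type and less RNA per cell cannot be told apart.

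None of the enzymes differed between KO and WT islets beyond the spread between libraries. Of the 7, edgeR called 0 (2 of all 16240 genes tested, 0.0123%, were called), and 0 had an unadjusted p under 0.05 (11% of all genes did, 5.19% with a higher and 5.8% with a lower value in KO). The KO and WT values overlapped for all 7, while the groups did not overlap for 15.7% of all genes tested, 8.02% higher and 7.69% lower in KO. Values were higher in KO for 4 enzymes (50% of all genes) and lower for 3 (50% of all genes), with a median log2 fold change of 0.02, against 5.34e-05 over all genes tested. DESeq2 and limma-voom also called 0 of the 7, with an unadjusted p under 0.05 for 1 (Cpd) and 0 of them; DESeq2 gave no adjusted p to Qpct. Comparing KO with WT library 3 alone gave log2 fold changes from -0.10 for Pam to 0.32 for Qpct. With the acinar covariate 0 of the 7 were called, but so were 0 of all genes tested. Igf2r itself had an edgeR adjusted p of 0.245 there, so that setting cannot decide about the enzymes. Because a p that misses the threshold does not show equality, each enzyme is given below with its 95% interval, which is for a single gene and is not adjusted for the number of genes.

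**Figure D1:**
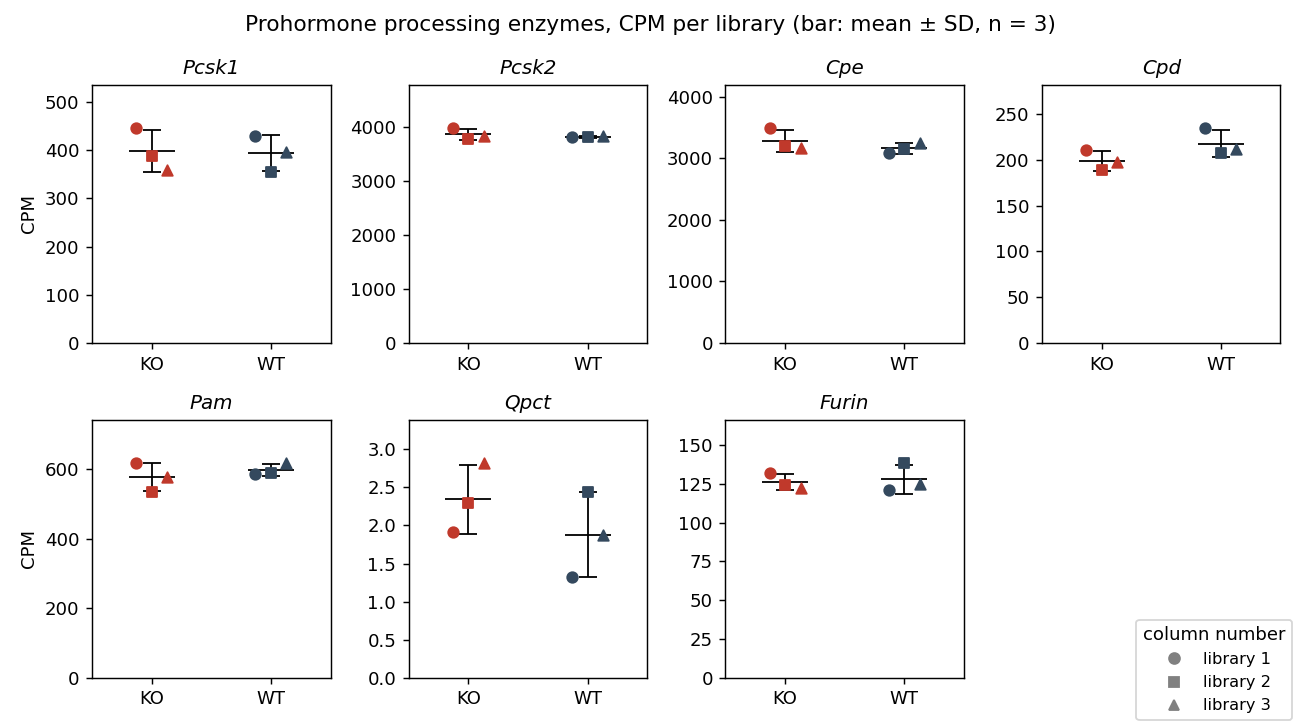
Each panel plots 1 enzyme in CPM, counts scaled to a common library size (vertical axis from 0), for 3 KO libraries (red, left) and 3 WT libraries (dark blue, right), with markers for library 1 (circle), 2 (square) and 3 (triangle) and bars for mean ± SD. KO and WT values overlap in all 7 panels, and the circle of Pcsk1 is the highest point in both genotypes.

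Pcsk1 and Pcsk2 encode the convertases of the regulated secretory pathway. Their proximal promoters are shown because the enzymes work on the same prohormones while the sequences before their annotated starts differ in kind. Both are the 250 bases before the start in RefSeq on GRCm38.p6, plus strand. Pcsk1 lies at chr13:75089607-75089856 and Pcsk2 at chr2:143545883-143546132. Capitals mark the cyclic AMP response element TGACGTCA and its shorter core TGACGT, and the GC box GGGCGG, each searched on both strands.
Pcsk1: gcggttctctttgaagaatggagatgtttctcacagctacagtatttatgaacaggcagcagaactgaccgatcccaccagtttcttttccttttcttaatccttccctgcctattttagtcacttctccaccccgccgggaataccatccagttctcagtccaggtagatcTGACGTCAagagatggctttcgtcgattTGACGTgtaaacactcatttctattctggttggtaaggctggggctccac
Pcsk2: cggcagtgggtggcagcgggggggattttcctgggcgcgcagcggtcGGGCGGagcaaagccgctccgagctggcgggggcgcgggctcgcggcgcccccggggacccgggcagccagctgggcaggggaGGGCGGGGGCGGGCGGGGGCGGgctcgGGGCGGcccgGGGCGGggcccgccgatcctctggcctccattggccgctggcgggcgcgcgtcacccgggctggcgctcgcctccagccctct
The Pcsk1 window held 1 full element at position -78 and a further core at -50, counted from the RefSeq start, and no GC box. The core also matched inside the full element on each strand, since that element is its own reverse complement. In GENCODE M21 the Pcsk1 gene starts at 75089826, inside this window, so positions counted from that start would differ. The Pcsk2 window held 7 GC boxes, some of them overlapping, and neither form of the element. G and C made up 46.8% of the Pcsk1 window and 82.4% of the Pcsk2 window. Of 32851 promoter windows of the same length, 1.55% held the full element, 6.47% the core and 32.7% the GC box. These matches describe letters only, and binding was not measured here.

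Pcsk1 stood at 446, 389 and 360 CPM (counts scaled by TMM to a common library size) in KO libraries 1 to 3, against 431, 356 and 395 CPM in WT libraries 1 to 3. Library 1 was the highest in each genotype, and the lowest value of all was in WT. The means were 398 ± 44.1 CPM in KO and 394 ± 37.5 CPM in WT (SD, n = 3 each). This gave a log2 fold change of 0.02 (SE 0.0835, 95% interval -0.16 to 0.20, edgeR adjusted p 0.959). The value was negative when KO library 1 (log2 fold change -0.07) or WT library 2 (-0.05) was left out, and with the acinar covariate (-0.01).

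Pcsk2 was the steadiest of the enzymes. It stood at 3984, 3771 and 3834 CPM in KO, against 3816, 3808 and 3837 CPM in WT. The 3 WT values differed by less than a percent of their level and lay inside the range of the KO values. With means of 3863 ± 109 CPM in KO and 3820 ± 14.7 CPM in WT (SD, n = 3 each), the log2 fold change was 0.02 (SE 0.0422, 95% interval -0.07 to 0.10, edgeR adjusted p 0.923). The sign of this value, too, changed without KO library 1 and with the acinar covariate.

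The spread between libraries differed between the 2 convertases. The coefficient of variation of Pcsk1 was 11.1% in KO and 9.51% in WT, and that of Pcsk2 was 2.83% in KO and 0.385% in WT. Over the 6074 tested genes with a mean log2 CPM of at least 5, the median was 4.18% in KO and 4.91% in WT. Pcsk1 varied more than 97.5% of these genes in KO and 89.8% in WT, whereas Pcsk2 varied more than 28% of them in KO and 0.395% in WT. The 95% interval of Pcsk1 was accordingly wider than that of Pcsk2, although both fold changes rounded to the same value. The genes compared were not matched for level. Pcsk2 had 63933 to 75019 counts in a library and Pcsk1 5971 to 8406, and the part of counting error in these spreads was not tested.

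Furin encodes the convertase of the constitutive pathway, which matures growth factors and receptors in most cell types. It had 132, 124 and 122 CPM in KO libraries, against 121, 139 and 125 CPM in WT libraries. WT libraries held both the lowest and the highest value. The means were 126 ± 5.31 CPM in KO and 128 ± 9.38 CPM in WT (SD, n = 3 each), a log2 fold change of -0.02 (SE 0.0596, 95% interval -0.14 to 0.10, edgeR adjusted p 0.934). It was positive without WT library 2 (0.04) or KO library 3 (0.0023), with WT library 3 as the single WT library (0.02), and with acinar markers as a covariate (0.01).

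Cpe, the granule carboxypeptidase whose loss in the fat mouse leaves prohormones incompletely processed, had the highest level per length of the 7. It stood at 3495, 3198 and 3165 CPM in KO and at 3087, 3149 and 3252 CPM in WT. KO library 1 was the highest and the other KO libraries lay within the WT range. The log2 fold change was 0.06 (SE 0.0474, 95% interval -0.04 to 0.15, edgeR adjusted p 0.695), with means of 3286 ± 182 CPM in KO and 3163 ± 83.2 CPM in WT (SD, n = 3 each). It was 0.0092 without KO library 1, 0.01 with WT library 3 as the single WT library and -0.02 with the acinar covariate.

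Cpd, a membrane-bound carboxypeptidase of the trans-Golgi network, had the smallest p of the family. It stood at 211, 190 and 197 CPM in KO libraries, against 235, 207 and 212 CPM in WT libraries. The 2 genotypes met at KO library 1, which was above WT library 2. The means were 199 ± 10.8 CPM in KO and 218 ± 14.9 CPM in WT (SD, n = 3 each). The log2 fold change was -0.13 (SE 0.0632, 95% interval -0.26 to 0.00, edgeR unadjusted p 0.0526 and adjusted p 0.462), and it stayed negative in all 18 other settings, with adjusted p from 0.214 upward. It was smallest without WT library 1, at -0.07 (edgeR adjusted p 0.85). DESeq2 gave an unadjusted p of 0.0409 and an adjusted p of 0.373.

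Pam encodes the amidating enzyme, which converts a C-terminal glycine to an amide with copper as a cofactor. It stood at 617, 535 and 577 CPM in KO, against 586, 589 and 618 CPM in WT. The lowest 2 values were in KO, and KO library 1 fell within the WT range. Means of 576 ± 40.8 CPM in KO and 598 ± 17.6 CPM in WT (SD, n = 3 each) gave a log2 fold change of -0.05 (SE 0.0596, 95% interval -0.18 to 0.07, edgeR adjusted p 0.774). Left-out libraries moved the value between -0.10 without KO library 1 and -0.00197 without KO library 2, with -0.03 without WT library 3. It was -0.10 with WT library 3 as the single WT library and -0.19 with the acinar covariate, and it was called in none of these settings.

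Qpct, glutaminyl cyclase, forms the pyroglutamate at the start of peptides such as thyrotropin-releasing hormone. It was low in islets, with 36, 40 and 48 counts in KO libraries and 25, 41 and 34 counts in WT libraries. These were 1.91, 2.29 and 2.83 CPM in KO and 1.33, 2.44 and 1.87 CPM in WT, and the ranges overlapped. The log2 fold change of 0.32 had an SE of 0.249 and a 95% interval of -0.20 to 0.84 (edgeR adjusted p 0.658). Its value was 0.12 without WT library 1, 0.17 without KO library 3 and 0.55 without WT library 2. The interval is wide, and the smallest difference detectable at this depth was not determined.

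**Figure D2:**
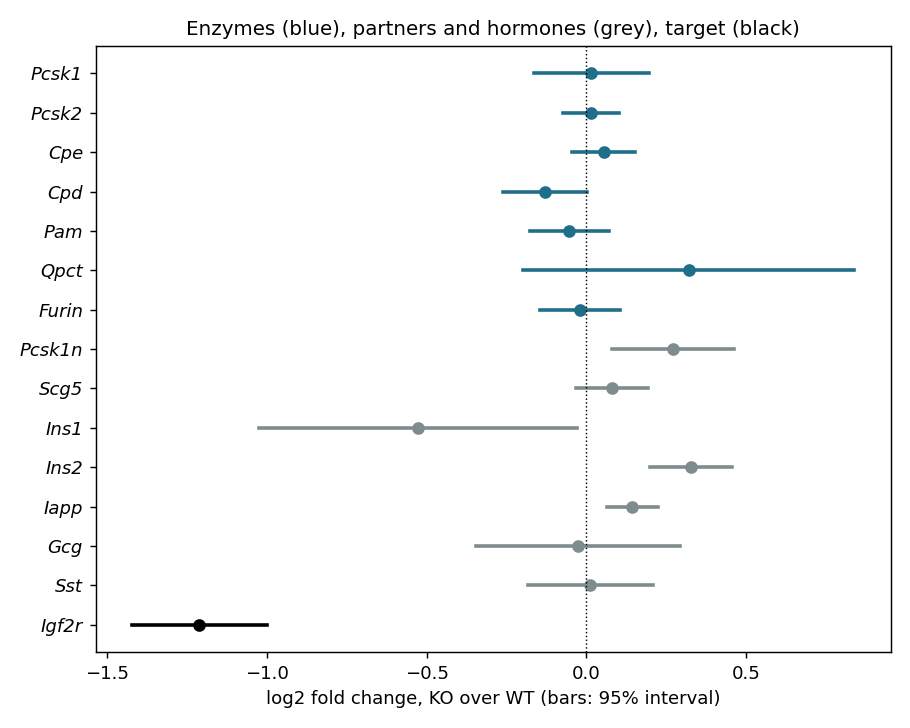
Points are log2 fold changes of KO over WT (horizontal axis) and bars their 95% intervals, for the 7 enzymes in blue, 2 convertase partners and 5 hormone genes in grey, and Igf2r in black. The interval of every enzyme includes 0, that of Qpct is the widest among the enzymes (-0.20 to 0.84), and Igf2r lies apart at -1.21.

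Levels of different genes were compared per kilobase of annotated exon (GENCODE M21), averaged over the 6 libraries. Cpe came first at 1236 CPM per kb, rank 12 among 14885 tested genes with a length. Pcsk2 followed at 486 CPM per kb (rank 30), Pcsk1 at 70.7 (rank 349) and Pam at 49.4 (rank 604). Cpd was at 25.0 (rank 1561), Furin at 13.9 (rank 3251) and Qpct at 0.831 (rank 12494). The order was the same in every library, since the ranges of neighbouring enzymes did not overlap. The closest neighbours were Pcsk1, at 64.2 to 79.7 CPM per kb in KO and 63.5 to 76.8 in WT, and Pam, at 45.0 to 51.9 in KO and 49.3 to 52.0 in WT. The exon length of Pam, 11892 bases, joins all its isoforms, which lowers its level per length. Together the 7 genes took 0.883%, 0.808% and 0.841% of counts in KO libraries 1 to 3 and 0.832%, 0.817% and 0.845% in WT libraries 1 to 3. The 95% Clopper-Pearson interval of each share was at most 0.00877 percentage points wide and covers counting error only. The mean shares, 0.844 ± 0.0376% in KO and 0.831 ± 0.0138% in WT (SD, n = 3 each), gave an exact two-sided permutation p of 0.8.

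**Figure D3:**
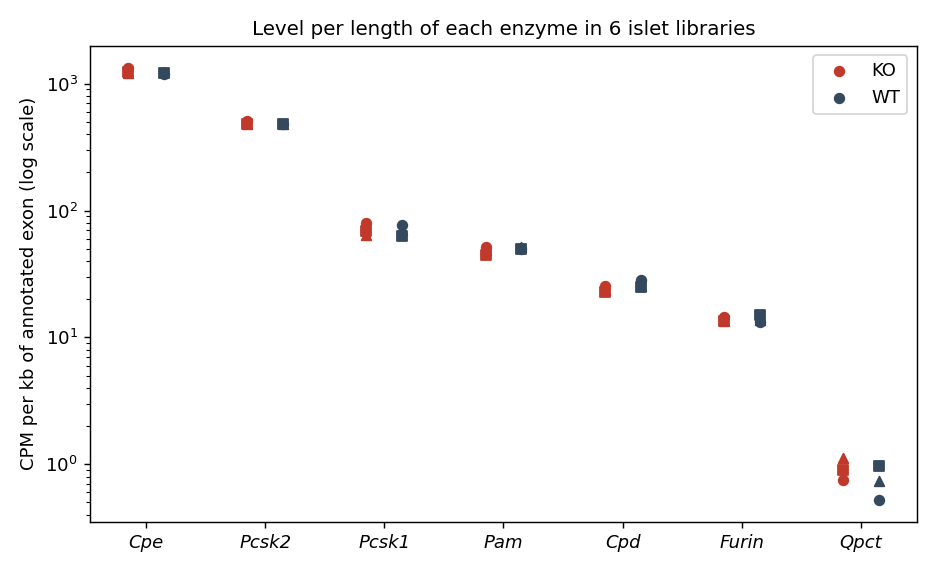
Each point is 1 library, KO in red and WT in dark blue, and the vertical axis is CPM per kb of annotated exon on a log scale. The enzymes fall in the same order in both genotypes, from Cpe at 1236 to Qpct at 0.831 CPM per kb on average.

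The 7 genes lie on 7 chromosomes. On GRCm38 in GENCODE M21, Pcsk1 (ENSMUSG00000021587.5) runs from 75089826 to 75134861 on chromosome 13 and Pcsk2 (ENSMUSG00000027419.9) from 143546156 to 143816285 on chromosome 2. Cpe (ENSMUSG00000037852.8) lies on chromosome 8 from 64592542 to 64693054, Cpd (ENSMUSG00000020841.5) on chromosome 11 from 76778424 to 76847018, and Furin (ENSMUSG00000030530.15) on chromosome 7 from 80388585 to 80405436. Pam (ENSMUSG00000026335.16) lies on chromosome 1 from 97795114 to 98095646 and Qpct (ENSMUSG00000024084.8) on chromosome 17, the chromosome of Igf2r, from 79051906 to 79090378. Antisense genes share 260 and 99 exonic bases with Pcsk2 (Pcsk2os1 and Pcsk2os2) and 118 with Furin (Gm44851). They had 255 to 316, 75 to 98 and 3 to 11 counts, against at least 63933 for Pcsk2 and 2081 for Furin. The reads counted for these antisense genes were thus few beside either enzyme's count. Reads in the shared bases that were counted for neither gene cannot be seen here, and the strand setting is not given. On the same strand, B230216N24Rik shares 188 exonic bases with Pam. It had 18 to 31 counts, against at least 9348 for Pam.

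The partners of the convertases were compared next. Pcsk1n encodes proSAAS, an inhibitor of PC1/3, and Scg5 encodes 7B2, the chaperone and inhibitor of PC2. Pcsk1n stood at 1437, 1812 and 1612 CPM in KO libraries, against 1221, 1403 and 1402 CPM in WT libraries. Every KO library was above every WT library. The log2 fold change was 0.27 (SE 0.0853, 95% interval 0.08 to 0.46), with an unadjusted p of 0.0102 and an adjusted p of 0.337 in edgeR, so it did not pass over all genes tested. DESeq2 called it (adjusted p 0.0375), as did edgeR without a low-count filter (0.00723), and its adjusted p over all settings ranged from 0.00723 to 0.9998. Scg5 stood at 840, 795 and 808 CPM in KO, against 735, 772 and 801 CPM in WT, with 1 KO library below the highest WT library. Its log2 fold change was 0.08 (SE 0.054, 95% interval -0.03 to 0.19, edgeR adjusted p 0.594).

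Ratios within a library do not depend on how libraries are scaled. The ratio of Pcsk1 to Pcsk2 counts was 0.112, 0.103 and 0.0938 in KO and 0.113, 0.0934 and 0.103 in WT, and the groups overlapped (exact two-sided permutation p 1). Pcsk1 to Pcsk1n was 0.311, 0.215 and 0.223 in KO and 0.353, 0.254 and 0.282 in WT, with means of 0.249 ± 0.0532 and 0.296 ± 0.051 (SD, n = 3 each; exact p 0.3). Library 1 was the highest of its genotype for both ratios, as it was for Pcsk1 alone. Pcsk2 to Scg5 was 4.74, 4.74 and 4.75 in KO, all below the 5.19, 4.93 and 4.79 in WT. Its means of 4.75 ± 0.00104 in KO and 4.97 ± 0.203 in WT (SD, n = 3 each) differed by -0.227, with an exact p of 0.1, the smallest that 3 against 3 allows. Adjusted over the 7 ratios and shares tested, this p was 0.35. The small SD in KO rests on 3 libraries, and the counting error of this ratio was not determined. WT library 3, the WT library with the least acinar RNA, was the nearest to KO for this ratio, the difference was -0.0475 against it alone and -0.117 without WT library 1, and the part of acinar RNA in it was not tested.

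Pcsk1, Cpe and Pam were set against substrates, and their mean ratios were lower in KO. The other enzymes were not set against a substrate. The log2 fold changes of these enzymes themselves were 0.02, 0.06 and -0.05. Of the substrates, Ins2 (0.33) and Iapp (0.14) had higher values in KO and Ins1 (-0.53) a lower one. With 3 against 3 the exact p cannot fall below 0.1, so no ratio could pass 0.05. Pcsk1 had 3.22, 2.64 and 2.85 counts per 1000 insulin counts (Ins1 and Ins2 summed) in KO and 3.72, 2.85 and 2.94 in WT (exact two-sided permutation p 0.5). Cpe had 25.2, 21.7 and 25.0 counts per 1000 insulin counts in KO, against 26.6, 25.2 and 24.2 in WT (exact p 0.5). The mean difference for Cpe, -1.34, was -0.202 without KO library 2, -0.691 without WT library 1 and -0.173 against WT library 3 alone. Pam to Iapp, the amidating enzyme over one of its substrates, was 0.0442, 0.0409 and 0.0431 in KO and 0.0503, 0.0473 and 0.0497 in WT. For this last ratio all KO libraries lay below all WT libraries, with means of 0.0427 ± 0.00169 in KO and 0.0491 ± 0.0016 in WT (SD, n = 3 each), a difference of -12.9% of the WT mean. The exact p of 0.1 is again the smallest possible, and adjusted over the 7 ratios and shares tested it was 0.35. Against WT library 3 alone the Pam to Iapp difference was -0.00694, as large as the -0.00635 of the full comparison.

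**Figure D4:**
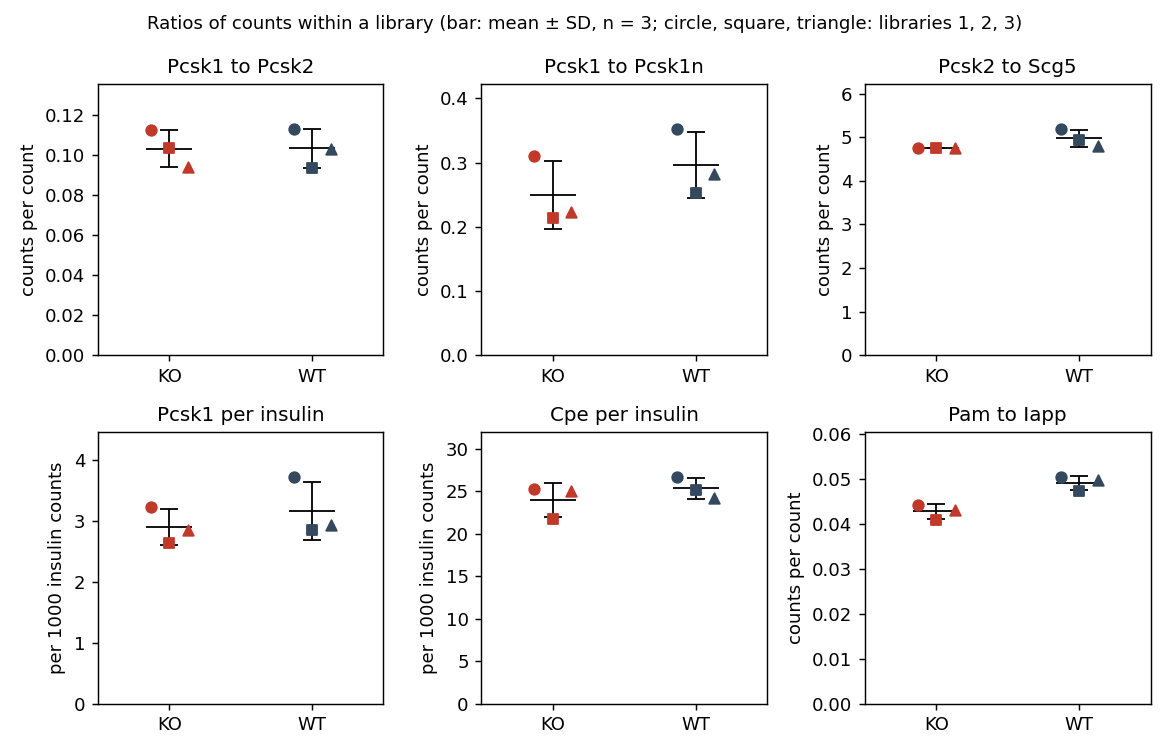
Each panel is a ratio of counts within a library, with KO (red) left of WT (dark blue), circle, square and triangle for libraries 1 to 3, and bars for mean ± SD. The groups separate for Pcsk2 to Scg5 and for Pam to Iapp, and overlap in the other panels.

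The prohormone genes, the substrates of these enzymes, were not called by edgeR as fitted. Other settings were looked up for Ins1, Ins2, Iapp, Gcg and Sst only, and Ins2 was called in some of them. Of 21 prohormone genes, 16 were tested, 10 with higher and 6 with lower values in KO, a median log2 fold change of 0.17, and 0 called by edgeR; 4 had an unadjusted p under 0.05 upward and 1 downward. The groups did not overlap for 6 genes that were higher, among them Ins2 and Iapp, and for 1 that was lower, Ins1, against 8.02% and 7.69% of all genes tested. Ins2 averaged 113052 ± 8313 CPM in KO and 90069 ± 3833 CPM in WT (SD, n = 3 each; log2 fold change 0.33, edgeR adjusted p 0.211). DESeq2 called Ins2 higher (adjusted p 1.27e-05), as did edgeR with no low-count filter (9.96e-08), without WT library 3 (0.00879) and without KO library 3 (1.65e-05). Over all genes these settings called 62, 272, 114 and 24, in that order. Ins1 averaged 24342 ± 2179 CPM in KO and 35046 ± 6845 CPM in WT (SD, n = 3 each; log2 fold change -0.53, edgeR adjusted p 0.439). Its log2 fold change was -0.72 against WT library 3 alone. That library had the highest Ins1 in WT, at 40127 CPM, against 27263 and 37749 CPM in WT libraries 1 and 2. Ins1 and Ins2 are close paralogs and their sum served as the insulin level, while the assignment of reads between them was not tested. Iapp averaged 13472 ± 442 CPM in KO and 12189 ± 461 CPM in WT (SD, n = 3 each; log2 fold change 0.14, edgeR adjusted p 0.27). The glucagon gene Gcg, a substrate of PC2 in alpha cells, had a log2 fold change of -0.03 (95% interval -0.34 to 0.29), and the somatostatin gene Sst one of 0.01 (-0.18 to 0.21). Granins, the acidic granule proteins that convertases also cut, had values near 0, with 0 of 5 called by edgeR, a median of -0.01, and values of 0.05 for Chga and -0.06 for Scg2.

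Related enzymes were also not called by edgeR as fitted. Of 6 other proprotein convertases, all were tested and 0 called, with 3 higher and 3 lower values and a median log2 fold change of 0.02. Pcsk4, best known as the convertase of germ cells, had 92.2, 105 and 104 CPM in KO libraries, against 84.5, 82.5 and 87.6 CPM in WT libraries. Its KO values were all above its WT values, with a log2 fold change of 0.24 (SE 0.0582) and an edgeR adjusted p of 0.211, and without a low-count filter it was called (0.00643). Mbtps1, the site-1 protease, had a log2 fold change of -0.01. Among 6 further carboxypeptidases and cyclases, 5 were tested and 0 called, with a median of -0.11, and Cpn1 and Cpm were at 0.09 and -0.11. Of these, Cpz had at most 2 counts in a library.

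Genes that supply copper to PAM and zinc to the carboxypeptidases and granules numbered 7, with 0 called by edgeR, 1 higher and 6 lower values and a median log2 fold change of -0.06. Atp7a, the pump that carries copper into the secretory pathway, had the smallest p, with 62.8 ± 3.92 CPM in KO and 71.1 ± 7.6 CPM in WT (SD, n = 3 each; log2 fold change -0.18, edgeR adjusted p 0.394). It was -0.09 without WT library 1, -0.08 with WT library 3 as the single WT library and -0.06 with the acinar covariate. The granule zinc transporter gene Slc30a8 was at -0.05 and Slc30a5 at -0.04. Of 13 furin substrates, 0 were called by edgeR, with 3 higher and 10 lower values and a median of -0.05. Igf1r, the insulin-like growth factor 1 receptor, was the one with the smallest p (log2 fold change -0.20, edgeR adjusted p 0.295). It was -0.12 without WT library 1, -0.10 with WT library 3 as the single WT library and -0.05 with the acinar covariate. The proton pump accessory genes Atp6ap1 and Atp6ap2 were at 0.06 and 0.04. Of 7 other peptidases of granules, lysosomes and the cell surface, edgeR called 0, with a median of 0.02, and DESeq2 called Anpep. Anpep, an aminopeptidase of the cell surface, was at 190 ± 9.29 CPM in KO and 242 ± 31.4 CPM in WT (SD, n = 3 each; log2 fold change -0.35, edgeR adjusted p 0.216). DESeq2 called it lower (adjusted p 0.00597), as did edgeR with no low-count filter (7.87e-05) and without WT library 3 (0.00099). It was highest in WT libraries 1 and 2, those with the most acinar RNA, and its log2 fold change was -0.11 with the acinar covariate; the part of acinar cells in it was not tested. The cathepsin gene Ctsb was at 0.12 (edgeR adjusted p 0.454).

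Some genes followed an enzyme closely from library to library. Likeness was measured as Pearson's r of log2 CPM over the 6 libraries, against 5990 genes that had a proper symbol and averaged 5 or more in log2 CPM, and the 3 highest are named as a description. For Pcsk1 they were Sort1, which encodes the sorting receptor sortilin (r = 0.991), Ids, a lysosomal sulfatase gene (r = 0.99), and Serpini1, the neuroserpin gene (r = 0.979). Sort1 stood at 334, 314 and 305 CPM in KO libraries 1 to 3 and at 326, 303 and 320 CPM in WT libraries 1 to 3, the same order of libraries as for Pcsk1 in each genotype. For Pcsk2 they were Wdr82 (r = 0.968), Atp6ap2 (r = 0.946) and Lgals3bp (r = 0.942), and for Cpe they were G6pdx (r = 0.981), Cmpk2 (r = 0.972) and Pomgnt1 (r = 0.969). Among the enzymes, the closest pair was Pcsk2 and Cpe (r = 0.878), while Pcsk1 had r = 0.602 with Pcsk2 and 0.524 with Cpe. All these values share the 6 libraries and their scaling, and the highest of 5990 is high in part because it was picked.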

How the data were processed

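RNA was sequenced from 3 KO and 3 WT islet samples. Per the labels' protocols, a strand-specific library was made from 500 ng of total RNA. Per the submitters' processing notes, Trimmomatic 0.39, STAR 2.7.10b and featureCounts 2.0.3 were used with mm10. The annotation and the strand setting behind the counts are not given in these sources. The authors deposited raw counts per gene, with no normalized values. Columns carry a genotype and a number that differs from the KO titles, so they were placed by genotype.

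Low genes were removed with filterByExpr of edgeR 4.0.16 at a minimum count of 10 and a minimum total of 15, and the rest held at least 99.8% of each library's counts. KO was tested against WT with TMM scaling (0.985 to 1.02), robust glmQLFit and a two-sided glmQLFTest, and p-values were adjusted over all genes by Benjamini-Hochberg with a threshold of 0.05. The SE is the log2 fold change over the root of F. Log2 CPM use a prior count of 2. DESeq2 1.42.0 and limma-voom (limma 3.58.1, R 4.3.3) were alternatives. The fit was tested on simulated data. Ratios were compared by exact permutation tests over libraries. The members and lists were chosen with earlier results of these data known. The named genes are the 7 members, Igf2r, the partners, the main hormones and, of each pathway list, the 2 with the highest CPM and the 1 with the smallest p, plus the 3 genes most like Pcsk1, Pcsk2 and Cpe. Genes named beyond these, such as Cpz, Amy2a5 and Prss1, were chosen after their values were seen. Marker lists of other cell types were used as sums and counts. Stellate and endothelial markers had 0 genes called by edgeR and 0 whose groups did not overlap.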

Additional observations from a re-analysis of the deposited data

How the results depend on the processing

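The count of enzymes called was 0 in all 18 other settings. Over all genes edgeR's 2 calls became 62 with DESeq2, 1 with limma-voom, 272 without a low-count filter, 1 without robust estimation, 0 with the acinar covariate and 0 to 114 when single libraries were left out (0 without KO library 1 or 2, 24 without KO library 3, 1 without WT library 1, 3 without WT library 2 and 114 without WT library 3). Against WT library 3 alone, log2 fold changes turned to 0.0155 for Furin, -0.0755 for Sst, 0.00077 for Slc30a5 and 0.0163 for Scg2, and the difference in the enzymes' share to -0.00132 percentage points. With the acinar covariate they turned to -0.00942 for Pcsk1, -0.015 for Pcsk2, -0.0167 for Cpe, 0.0123 for Furin, -0.00972 for Scg5, -0.049 for Sst, 0.0315 for Scg2 and -0.0401 for Atp6ap2. Leaving out single libraries gave log2 fold changes of -0.0732 to 0.0849 for Pcsk1, -0.00591 to 0.0338 for Pcsk2, -0.0604 to 0.041 for Furin, -0.129 to 0.058 for Gcg, -0.0724 to 0.0749 for Sst, -0.026 to 0.013 for Mbtps1, -0.221 to 0.00631 for Cpm, -0.0975 to 0.036 for Slc30a5 and -0.0215 to 0.0802 for Atp6ap2. It gave differences of -0.00497 to 0.00475 for Pcsk1 to Pcsk2, -0.425 to 0.00976 for Pcsk1 per 1000 insulin counts and -0.00712 to 0.0304 percentage points for the share. The cause of these changes of sign was not tested. Ins2 was called by DESeq2, without a filter, and without WT library 3 or KO library 3. Anpep was called by DESeq2, without a filter and without WT library 3.

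A replicate block by column number, chosen after seeing the data, gave 30 calls over all genes, 0 of the enzymes and Pcsk1n (edgeR adjusted p 0.0291). Deviations of libraries with the same column number correlated at 0.0731, 0.097 and 0.0971, each library correlating best with its own number, a hint from the data only, and the titles give the groups different numbers. Counting error weighs most on Qpct, and 3 libraries per group limit every comparison.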
